A study of Mus musculus with 3 samples.

Results

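Cell adhesion genes were followed in the normal neural retina of the mouse at postnatal day 7: the cadherins, protocadherins and their catenins, the integrins, the adhesion molecules of the immunoglobulin (Ig) superfamily, the nectins, and the genes of tight and gap junctions. A probe set belonged when its annotation gave 1 gene symbol of these families. Cdh5 and Gja3 were left out. The rule found 116 probe sets of 78 genes, among 12422 probe sets of 8251 genes on the array. RNA of 3 wild-type samples was hybridised to MG-U74Av2 arrays, and each sample pooled the retinas of 3 to 4 animals killed on day 7 between 1 and 2 pm. The animals had mixed 129/SvEv and C57BL/6 descent and were littermates of Rp1-/- mice, which were not analysed here. There was 1 group, so no conditions were compared. The pools are numbered 1, 2 and 3 as names only, and differences between them hold animal and technical variation together.

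Cadherins are calcium-dependent receptors that bind cadherins on the next cell, and catenins tie their tails to actin. Integrins pair an alpha with a beta chain and hold cells to the extracellular matrix. Ig adhesion molecules bind between cells without calcium and guide axons and their bundling. Tight junction proteins seal epithelia and vessels, and connexins form channels that join the cytoplasm of neighbouring cells. In the developing retina, N-cadherin and its catenins hold the outer limiting membrane, where Müller glia meet photoreceptors.

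Levels are intensities in arbitrary units, scaled so that the 3 arrays have the same median. Intensities of different probe sets are not comparable as amounts of RNA. A gene was called above background in a pool when its probe set passed a bar, the 90th percentile, on the same array, of 56 genes known from other organs. The bar was 271, 262 and 298 in pools 1, 2 and 3. A gene under the bar may still have been transcribed. In whole tissue, fewer cells of a type and less RNA per cell cannot be told apart. Where a gene had several probe sets, the one without a letter suffix stood for it.

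Of the 78 adhesion genes, 16 (20.5%) were above background in all 3 pools, 6 in 1 or 2 pools and 56 in none. Over all 8251 genes the share above background in all 3 pools was 46.5%. The 16 genes were Cdh1, Cdh2, Ctnna1, Ctnna2, Ctnnd1, Ctnnd2, Itga3, Itgb1, Itgb5, Itgb7, Cntn1, Ncam1, Nrcam, Nectin2, Tjp1 and Gja1. Their means over the pools ran from 365 to 7478, and those of the 56 genes from 7.68 to 205. With the bar at the 75th percentile of the same 56 genes, 26 adhesion genes passed, and 62.0% of all genes. The catenins had the highest share, 4 of 5 genes, while 2 of 12 cadherins, 1 of 12 integrin alpha genes and 1 of 12 tight junction genes passed in all pools.

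**Figure D1:**
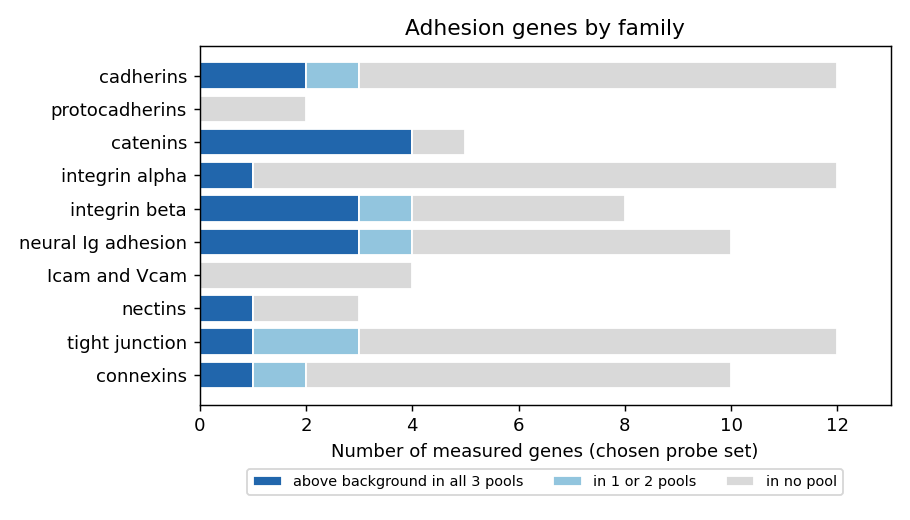
Number of measured genes in each adhesion family (horizontal axis), split by whether the chosen probe set was above background in all 3 pools, in 1 or 2 pools or in none. The catenins have 4 of 5 genes above background in all pools, and the Icam and Vcam genes and the protocadherins have none.

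Markers of retinal cells were checked for the labelled tissue. Of 8 measured rod photoreceptor genes 7 were above background in all pools, as were 6 of 8 Müller glia genes and 6 of 6 ganglion cell genes. The lens list was above background too (6 of 8), and it differed between the pools, with summed levels of 26729, 126770 and 136209 in pools 1, 2 and 3. Of the other lists, beside the 46.5% of all genes, 1 of 6 pigment epithelium genes, 2 of 8 endothelial genes, 4 of 10 microglia and leukocyte genes, 1 of 3 red blood cell genes, 2 of 9 muscle and connective tissue genes and 1 of 6 astrocyte and oligodendrocyte genes passed in all pools.

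Among the cadherins, 2 of 12 genes were above background in all pools. Cdh2, the gene of N-cadherin in neural tissue, was at 2209, 2226 and 2382 in pools 1, 2 and 3 (mean 2272 ± 95.3, SD, n = 3 pools). The 3 pools differed by a factor of 1.08, the smallest range among the 16 genes as scaled. In the deposited intensities Cdh2 read 2296, 2044 and 2483, and Nectin2 had a narrower range, at 669, 613.4 and 612.8. Cdh1 encodes E-cadherin, the cadherin of epithelia, and was at 567, 383 and 592 (514 ± 114, SD, n = 3 pools). All 3 values were above the bar, and pool 2 was the low one.

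Cdh3, the gene of P-cadherin, which the pigment epithelium is known to carry, was at 223, 433 and 469 in pools 1, 2 and 3. It was above the bar in pools 2 and 3 and below it in pool 1. A second probe set of Cdh3 was below the bar in each pool, at 86.4, 99.2 and 112, a range of 1.29-fold. Cdh3 and Cdh1 are neighbouring protein-coding genes in the RefSeq gene order. Cdh1 was lowest in pool 2 and Cdh3 in pool 1. The other 9 cadherin genes, Cdh4, Cdh6, Cdh8, Cdh9, Cdh10, Cdh11, Cdh13, Cdh15 and Cdh16, were below the bar in every pool, with means of 25.5 to 177. Cdh4, which encodes R-cadherin, named after the retina, came nearest to the bar in pool 3, at 126, 124 and 271. Cdh11, a cadherin of mesenchyme, was at 220.1, 174 and 136. The protocadherin genes Pcdh7 and Pcdh12 were also below it throughout, at means of 27.2 and 42.6. Probe sets shared by several protocadherin alpha genes were no members.

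Of the catenins 4 of 5 genes were above background in all pools. Ctnnd1 encodes p120 catenin, which stabilises cadherins at the membrane, and was at 2137, 2501 and 2616. Ctnnd2 encodes delta-catenin of neurons and was at 1584, 2629.5 and 2629.7 by its sole probe set, for which the usual design rules were relaxed. By these probe sets pool 1 lay below the others for both genes, by a factor of 1.22 at most for Ctnnd1 and 1.66 for Ctnnd2. The other probe set of Ctnnd1 read 405, 614 and 447, above the bar in each pool. It was lowest in pool 1 and highest in pool 2, with a range of 1.51-fold. Ctnna1 and Ctnna2 encode the alpha-catenins that meet actin, the second one in neurons. They were at 723, 631 and 559.8, and at 848, 757 and 838, with all pools above the bar. Other probe sets of both genes disagreed. That of Ctnna1 read 36.8, 43.7 and 19.9, below the bar. Those of Ctnna2 read 355, 281 and 204, above it in pools 1 and 2 alone, and 181, 143 and 139, below it throughout. Ctnnal1, an alpha-catenin relative, was below the bar in each pool (152, 106 and 166).

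Of the integrin genes, 3 of 8 taken as beta and 1 of 12 alpha genes were above background in all pools. Itgb1, the partner of most matrix-binding alpha chains, was at 2385, 2767 and 1979 (2377 ± 394, SD, n = 3 pools). Its second probe set was also above the bar, at 607, 602 and 544. Both are of types that can match related transcripts or were made under relaxed rules. Itgb5, which pairs with Itgav to bind vitronectin, was at 829, 1483 and 1367 (1226 ± 349, SD, n = 3 pools), lowest in pool 1. A further probe set of Itgb5 was lowest there too, at 271, 394 and 365.

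Itgb7, known from lymphocytes, was at 381, 367 and 348, above the bar in each pool. A second probe set of the gene was below the bar, at 14.8, 16.8 and 19.3, and the partner chain of lymphocytes Itgae was below it too. The Itgb1-binding protein gene Itgb1bp1, which the name rule also took, lay at the bar with 251, 269 and 309, below it in pool 1. Its other probe sets fell below the bar in other pools. These read 375, 344 and 262, below it in pool 3, and 278, 171 and 299, below it in pool 2. The remaining beta genes Itgb2, Itgb2l, Itgb3 and Itgb4 were below it in all pools.

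Itga3, the alpha chain of a laminin receptor, was at 479, 403 and 431 by its chosen probe set, above the bar in all pools. Its other probe set read 227, 470.3 and 461, low in pool 1. Itga6, the alpha chain of another laminin receptor, was below the bar at 84.4, 86.2 and 96.2.

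Itgav, the alpha chain of vitronectin receptors, is the gene whose call turned on the choice of probe set. The chosen one read 108, 61.9 and 76.4, below the bar in every pool. A probe set of a type that can be shared between related transcripts read 912, 1455 and 1191, above it in every pool, and the other read 287, 89.6 and 356. Other integrin genes of leukocytes than Itgb7 were below the bar. Itgam, the alpha chain of microglia and macrophages, was at 31.7, 15.1 and 18.6, and its partner Itgb2 at 20.01, 58.1 and 30.9. The leukocyte marker Ptprc was also below the bar, at 8.85, 12.5 and 12.0, and 4 genes of the same marker list (C1qa, C1qc, Cx3cr1 and Cd14) were above background in all pools. Itga2, Itga4, Itga5, Itga7, Itga8, Itgal and Itgax were below the bar in each pool as well. Of these Itgax was at 163, 158 and 294.6, close to the bar of 298 in pool 3.

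**Figure D2:**
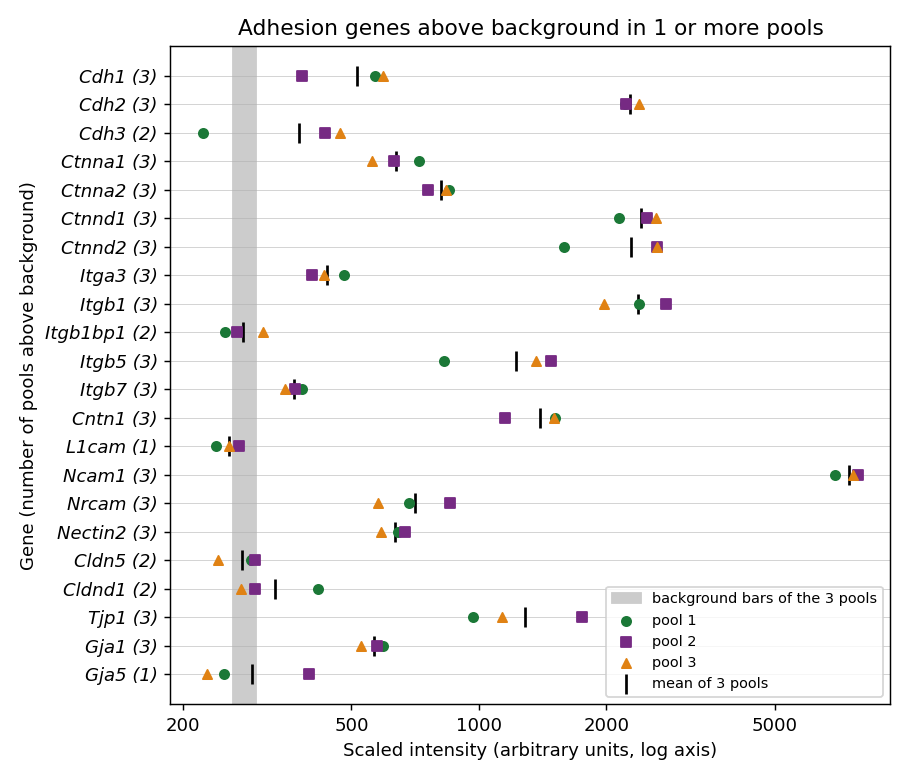
Scaled intensity (log axis) of the 22 adhesion genes above background in at least 1 pool, by their chosen probe set; symbols are the 3 pools, black ticks their mean, and the grey band spans the background bars of 262 to 298. Ncam1 lies between 6936 and 7847 in the 3 pools, and Cdh3, Itgb1bp1 and Gja5 have values on both sides of the band.

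Of the Ig adhesion genes of neurons, 3 of 10 were above background in all pools. Ncam1, the neural cell adhesion molecule carried by most neurons and by glia, was at 6936, 7847 and 7652 (7478 ± 479.5, SD, n = 3 pools). The pools differed by a factor of 1.13. Another probe set of Ncam1 read 853, 614 and 589, and the remaining one 23.1, 47.1 and 28.5, below the bar in each pool. Cntn1, which encodes the lipid-anchored axonal protein contactin 1, was at 1514, 1151 and 1507. Nrcam, an L1-family gene of axons and nodes, was at 684, 856 and 578.

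The rule covered neurexin and neuroligin genes but found no probe set with 1 gene symbol of either, so they were not analysed here. L1cam, the axonal namesake of the L1 family, lay at the bar. It was at 239.9, 272 and 258, above the bar in pool 2 alone. Its mean was 256 ± 15.9 (SD, n = 3 pools). Alcam, a marker of ganglion cell axons, was at 142, 179 and 154, under the bar in each pool. Chl1, Ncam2, Cntn3, Cntn4 and Cntnap1 were under it as well. For Cntnap1, a partner of contactin at the node of axons, the values were 169.5, 38.1 and 204.

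The promoter windows of 3 genes of this group are shown as examples, picked after their values were seen, of the range in CG dinucleotides, which mark the promoters of broadly used genes. Relatives with other pairings of CG and call were L1cam and Cntn4. L1cam has 25 CG and was above background in 1 pool alone. Cntn4 has 12, more than Cntn1, and was above it in none. Windows run from 250 bases before to 50 after the annotated start, from RefSeq on GRCm38.p6, 5′ to 3′ on the strand of the gene, with each CG in capitals. Nrcam and Cntn1 were above background in all pools and Cntn3 in none. The Nrcam window is chr12:44328635-44328934 on the plus strand and holds 37 CG. The Cntn1 window is chr15:92050915-92051214 on the plus strand and holds 9. The Cntn3 window is chr6:102464618-102464917 on the minus strand and holds 0.
Nrcam: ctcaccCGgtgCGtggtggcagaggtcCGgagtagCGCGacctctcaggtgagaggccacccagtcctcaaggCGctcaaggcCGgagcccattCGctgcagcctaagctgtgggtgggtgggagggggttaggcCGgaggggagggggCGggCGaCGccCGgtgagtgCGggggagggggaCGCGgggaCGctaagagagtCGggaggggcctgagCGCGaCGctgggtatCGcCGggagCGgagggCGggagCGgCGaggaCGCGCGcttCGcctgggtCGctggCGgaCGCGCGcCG
Cntn1: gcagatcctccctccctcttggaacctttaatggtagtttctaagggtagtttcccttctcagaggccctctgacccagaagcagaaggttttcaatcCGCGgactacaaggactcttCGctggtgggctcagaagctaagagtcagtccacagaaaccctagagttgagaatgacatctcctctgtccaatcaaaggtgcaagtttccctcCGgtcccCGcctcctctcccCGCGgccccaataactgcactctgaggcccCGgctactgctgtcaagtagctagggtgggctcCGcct
Cntn3: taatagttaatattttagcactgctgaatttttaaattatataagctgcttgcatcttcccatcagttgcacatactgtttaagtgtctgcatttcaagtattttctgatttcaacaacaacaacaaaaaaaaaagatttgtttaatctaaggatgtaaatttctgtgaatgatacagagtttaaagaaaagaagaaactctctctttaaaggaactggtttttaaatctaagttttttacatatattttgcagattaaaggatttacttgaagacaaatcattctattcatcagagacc

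Across the adhesion genes, RefSeq windows were at hand for 55 of the 78, and for a gene with several the one richest in CG was taken. The 12 genes with a window that were above background in all pools had a median of 25.5 CG per window (quartiles 17.25 and 30.25), and the 43 others a median of 13 (7.5 and 23). Over all genes measured, the medians were 24 and 15, in 3149 and 3427 genes. Without the split by call, the 55 adhesion genes had a median of 15 CG and all 6576 genes one of 20, and 50.9% and 66.5% of them had 15 or more. Among the genes above background Ctnna2 had 38 CG, Tjp1 31 and Ctnnd1 30, whereas Itgb7 had 5 and Gja1 8. Of the genes in no pool, Gjd2 and Ncam2 had 41 each and Nectin3 40, so a window rich in CG did not go with a call in every gene. The letters TATAAA, searched on both strands, were in 0 of the 12 windows and 5 of the 43 (11.6%). Over all genes they were in 196 of 3149 windows (6.22%) with the call and 463 of 3427 (13.5%) without it, or 659 of 6576.

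The Icam and Vcam genes, adhesion molecules of vessel walls and immune contacts, were below background in every pool. Vcam1, the ligand of leukocyte integrins on activated endothelium, was at 139, 228 and 108, and Icam1 at 37.2, 16.6 and 4.60. Icam2 and the neuronal Icam5 were below the bar too. Of the 8 endothelial markers Kdr and Eng were above background in all pools, Pecam1 in pool 3 alone, Flt1 in pool 1 alone, and Tek, Tie1, Cd34 and Vwf in none, with a summed level of 2252 to 2573 over the list.

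The nectins, Ig proteins that bind afadin and act beside cadherins, were represented by 3 genes. Nectin2 was at 644, 668 and 588 (633 ± 41.2, SD, n = 3 pools), above the bar in all pools with a range of 1.14-fold. Another probe set of Nectin2 read 330, 263 and 206, above the bar in pools 1 and 2 alone, with a range of 1.61-fold. Nectin3 and Pvr, relatives of Nectin2, were below the bar in each pool, at means of 67.3 and 50.1.

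Among the tight junction genes the scaffold gene Tjp1, whose protein ZO-1 also sits at the outer limiting membrane, was at 971, 1750.0 and 1134. All pools were above the bar, and pool 2 was 1.80-fold above pool 1, the widest range among the 16 genes as scaled. In the deposited intensities Tjp1 read 1009, 1607 and 1182, and Cdh1 ranged more widely, at 590, 352 and 617. The second probe set of Tjp1 was below the bar, at 23.3, 37.8 and 34.9. Cldn5, the claudin of the endothelial barrier, was at 289.8, 296 and 242, above the bar in pools 1 and 2 alone. Cldnd1, a claudin-like gene, was at 418, 296 and 274 and below the bar in pool 3. Ocln, which encodes occludin, was below it at 10.8, 72.8 and 49.1. The claudin genes Cldn1, Cldn2, Cldn3, Cldn4, Cldn6, Cldn7, Cldn8 and Cldn11, known from epithelia and myelin, were below the bar in all pools.

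Of 10 connexin genes Gja1 alone was above background in all pools. It encodes connexin 43, the gap junction protein of glia, and was at 593, 573 and 526 (564 ± 34.5, SD, n = 3 pools). Its 2 probe sets disagreed, since the other read 110.3, 83.5 and 103, below the bar. Both carry a letter suffix. The chosen one is of a type that can match related transcripts, and the other was made under relaxed rules. Gja5, a connexin of arteries, was above the bar in pool 2 alone, at 250.3, 397 and 228. Gjd2, the connexin 36 gene of neurons and in the retina of AII amacrine and cone coupling, was at 90.8, 162 and 25.7, below the bar throughout. Gja4, Gja10, Gjb1, Gjb2, Gjb5, Gjb6 and Gjc1 were below it too, with means down to 7.68 for Gja10, the connexin 57 gene of horizontal cells.

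**Figure D3:**
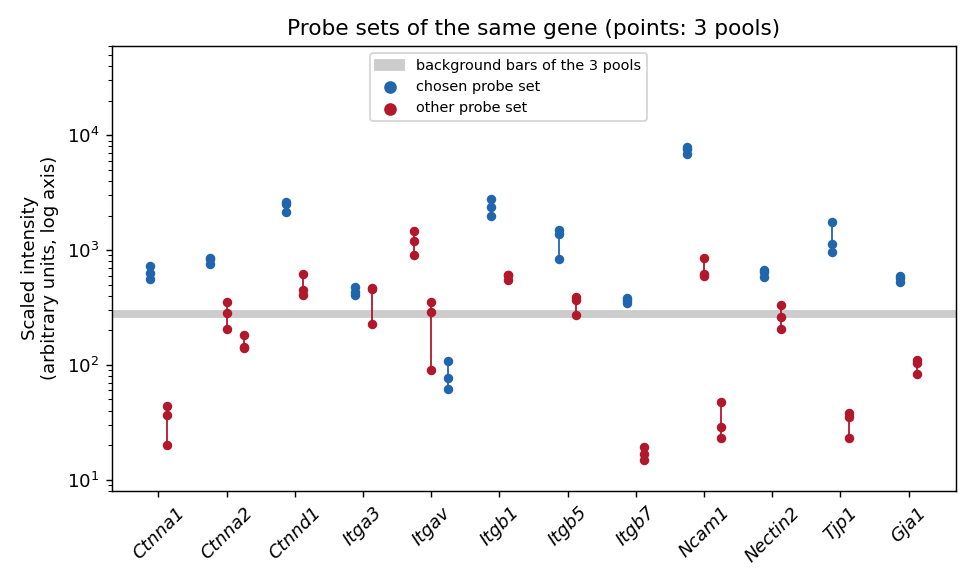
Scaled intensity (log axis) of every probe set of the 12 adhesion genes that have several probe sets and at least 1 above background in all pools; points are the 3 pools, blue the chosen probe set, red the others, and the grey band the background bars. For Itgav the chosen probe set lies between 61.9 and 108 and another between 912 and 1455.

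Probe sets of the same gene often disagreed. Of the 29 genes with several, all probe sets were above background in all pools for 3 (Ctnnd1, Itgb1 and Itgb5), none for 17, and some but not all for 9. Counting a gene as above background by any of its probe sets changed the call of Itgav alone and gave 17 genes, beside 48.1% of all genes.

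Genes that work with these receptors were followed as 4 lists. Of 66 measured partner genes, 39 (59.1%) were above background in all pools, beside 46.5% of all genes. In the list of cytoplasmic linkers of cadherins and nectins 7 of 13 genes passed. The list also held the desmosomal cadherin genes Dsg2 and Dsc2, which were below the bar in each pool. Of the genes that passed, the beta-catenin gene Ctnnb1 was at 4408, 5098 and 4431. The plakoglobin gene Jup was at 434 ± 67.1, the vinculin gene Vcl at 384 ± 45.9 and Pkp4 at 892 ± 109 (SD, n = 3 pools each). In the list of focal adhesion proteins, some of which link integrins to actin, 14 of 19 genes passed. The first to pass were the talin gene Tln1 at 914 ± 261, the kinase gene Ilk at 1048 ± 20.4, the paxillin gene Pxn at 358 ± 24.7 and Fyn at 899 ± 105 (SD, n = 3 pools each). The list also held genes of membrane proteins that are not such linkers. Of these Cd9, Cd47, Cd81 and Cd151 passed and Cav1 did not.

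Of the matrix ligands 5 of 15 were above background. They were the fibronectin gene Fn1 at 740 ± 114, the tenascin gene Tnc at 378 ± 58.6, the collagen IV genes Col4a1 and Col4a2 at 1263 ± 183 and 1116 ± 172, and Fbln1 at 381 ± 72.3 (SD, n = 3 pools each). The laminin genes Lama2, Lama4, Lama5, Lamb1, Lamb2 and Lamc1 were below the bar in each pool, and Lama1 was above it in pool 2 alone. Of other junction and synaptic adhesion genes 13 of 19 passed. Cadm1, which encodes a synaptic Ig adhesion molecule, was at 11864, 17523 and 16497. Jam3, a junctional gene, was at 504 ± 65.4, Dlg1, a scaffold gene, at 1097 ± 181 and Cask, another, at 1273 ± 326 (SD, n = 3 pools each).

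For 12 of the 16 genes above background the highest pool was less than 1.5-fold above the lowest, and the median of the ranges was 1.26-fold. Whether a probe set varied more between pools than others of its brightness was tested with limma on 6211 probe sets, the brighter 50% of the array. Of the 116 adhesion probe sets, 32 from 23 genes were bright enough to be tested and 84 were not. Excess spread was found for 0 of the 32 at a limma adjusted p below 0.05, and over all probe sets for 1.34%. That last share rested on the scaling, with 83 of 6211 probe sets as given and 6 either without scaling or with quantile normalisation, and the adhesion count was 0 in each. At an unadjusted p below 0.05 there was 1 of 32, against 420 of 6211 (6.76%). The smallest limma adjusted p was 0.726, for the second probe set of Itga3 (SD of 0.60 on the log2 scale). The median SD of the 32 was 0.28 on the log2 scale, and that of all tested probe sets 0.26.

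**Figure D4:**
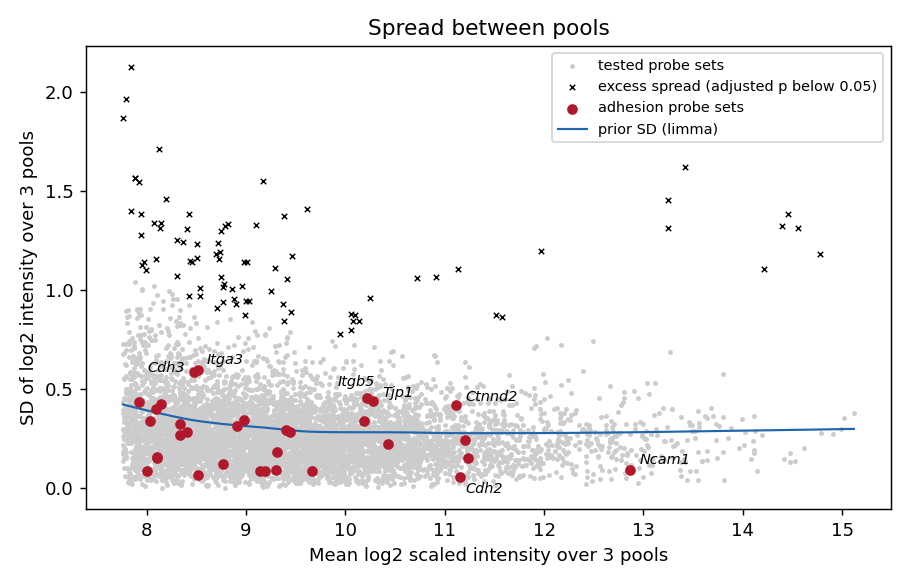
SD of log2 intensity over the 3 pools (vertical axis) against the mean log2 intensity (horizontal axis) for the 6211 tested probe sets (grey), those with excess spread (black crosses), the 32 adhesion probe sets (red) and limma's prior SD (blue line). No adhesion probe set is among the crosses, and the widest, of Itga3 and Cdh3, have SDs of 0.60 and 0.59.

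The highest pool exceeded the lowest by more than 2-fold in 2 of the 32 adhesion probe sets, Cdh3 at 2.10-fold and the second one of Itga3 at 2.07-fold, against 8.63% of all tested probe sets. Next to these came Tjp1 at 1.80-fold and Itgb5 at 1.79-fold. In each of the first pair pool 1 was the low pool and lay below the bar. The median log2 deviation of the 32 probe sets from their own mean was 0.02, 0.06 and -0.04 in pools 1, 2 and 3, and that of all tested probe sets -0.04, 0.11 and -0.07.

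The pools 2 and 3 were both at least 1.5-fold above pool 1 for 4 of the 32, Cdh3, Itga3 by its second probe set, Itgb5 and Ctnnd2, and for 4.43% of all tested probe sets. This count was chosen after the values were seen. The ratios of pools 2 and 3 to pool 1 were 1.94 and 2.10 for Cdh3, 2.07 and 2.03 for Itga3, 1.79 and 1.65 for Itgb5, and 1.66 and 1.66 for Ctnnd2. None of the 4 had excess spread. With unscaled intensities, as with quantile normalisation, Ctnnd2 no longer met this count and the others did. The summed lens list stood 4.74-fold and 5.10-fold higher in pools 2 and 3 than in pool 1, and the summed pigment epithelium list, of which Dct alone was above background in all pools, 1.25-fold and 1.42-fold higher. The pigment epithelium genes did not move alike, with Dct at 347, 333 and 472, Pmel at 145, 412 and 293, and Ttr at 151, 90.1 and 102. Tyr was at 45.4, 74.4 and 102, Tyrp1 at 85.1, 68.4 and 147, and Rdh5 at 56.9, 58.7 and 67.4. Ttr, Tyr, Tyrp1 and Rdh5 were below the bar in each pool. Pool 3 was above pool 1 for every measured gene of this list but Ttr. Pools 2 and 3 relative to pool 1 stood at 1.27 and 1.18 for the rod list, 1.83 and 1.19 for muscle and connective tissue, and 1.09 and 1.17 for microglia and leukocytes. Both were lower than pool 1 for the ganglion cell list (0.822 and 0.794), the endothelial list (0.979 and 0.875) and the astrocyte and oligodendrocyte list (0.976 and 0.783). The red blood cell list (2.18 and 0.950) and the Müller glia list (1.21 and 0.885) were higher in pool 2 and lower in pool 3. Sums hide single genes. Within the rod list Gnat1 was at 219, 699 and 680 and Prph2 at 1261, 981 and 3901. Both had excess spread (limma adjusted p of 0.0162 and 0.000291), and the other measured rod genes did not. The part of these lists in the pool differences of the 4 genes was not tested.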

How the data were processed

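Total RNA of 3 pools of retina was measured on 1-colour MG-U74Av2 arrays, the type named in the sample titles. For each probe set the authors deposited a linear intensity (0.1 to 55245.8 over the arrays). Which software and background correction produced it is not stated in the labels. Deposited intensities averaged 500.3, 500.0 and 500.0 in pools 1, 2 and 3 without the lowest and highest 2%, so each array had been scaled. The number of arrays limits the precision.

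From these, 66 control probe sets of 12488 were left out. Symbols came from the platform annotation, with gene IDs looked up in RefSeq (GRCm38.p6). Of 12422 probe sets, 10833 had 1 symbol (10817 found by gene ID), and 396 had several and were not named. Each array was scaled to the same median (factors 0.962, 1.09 and 0.959), floored at the 20th percentile of all values (42.2) and put on the log2 scale. A gene was represented by a probe set without a letter suffix, then by the highest mean. Levels and SDs in the text are not floored. Of 69 genes written for the background list 56 were measured.

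The spread test took the variance of each probe set over the 3 pools (2 residual degrees of freedom) against the prior variance of squeezeVar in limma 3.58.1 (R 4.3.3), robust and with a trend on level, at its highest prior degrees of freedom (279), with Benjamini-Hochberg adjustment over the 6211 probe sets. It was tested on simulated data. Its p-values speak of the spread of these pools, some of which may be technical. The members, the lists and the rule for named genes (every member above background in all pools, or with excess spread or a range above 2-fold, plus 28 well-known genes where measured, and the first 4 partner genes of each role that were above background in all pools) were chosen with earlier results of these data known. Other genes are named to account for every member or to spell out a count.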

Additional observations from a re-analysis of the deposited data

How the results depend on the processing

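The number of adhesion genes above background was 16 and became 26 with the bar at the 75th percentile, the 10 added ones being Alcam, Cdh3, Cdh6, Cldn4, Cldn5, Cldnd1, Gja5, Itgax, Itgb1bp1 and L1cam. With the array median as the bar it was 21, with the probe set of the highest mean 16 (Itgav gained and Itgb7 lost, the latter with its probe set unchanged and the bar set anew), and without each pool 17 to 18, with all 16 kept. The share over all genes, reported as 46.5%, was 62.0% with the 75th percentile bar and 51.2% with the array median. It was 41.0% with the highest mean and 47.4% to 49.8% without each pool. The number of adhesion probe sets with excess spread was 0 under each of the 11 alternatives to scaling, floor, filter, prior and pools, with 0 to 4 at an unadjusted p below 0.05. Over all tested probe sets the number fell from 83 to 6 with no scaling and 6 with quantile normalisation, and the cause was not tested. Without scaling, the median log2 deviation in pool 2 was -0.06 for adhesion probe sets and -0.01 for all, against the reported 0.06 and 0.11. The number with a range above 2-fold moved from 2 to 0 with a pseudocount of 32 in place of the floor, 0 among the brightest 25% of probe sets and 21 of 116 without the filter on dim ones, where 20.8% of all probe sets had it. Leaving out each pool gave 0 to 2, being 0 without pool 1. The number of partner genes above background was 34 to 46 against the reported 39. The 34 came with the probe set of the highest mean, where 41.0% of all genes passed. The 46 came with the 75th percentile bar, where 62.0% did. The lower bar passes dimmer genes and the pseudocount shrinks ranges by construction. No paired analysis was possible because there is 1 group. With 3 arrays, genes near the bar could not be placed, and 84 of 116 adhesion probe sets were too dim for the test of spread.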
